A study of Mus musculus with 4 samples.

Results

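The genes described here encode the enzymes and transporters of glycolysis, the kinases that set its branch points, and the sensors and targets of the response to low oxygen. They are 37 genes of 19787 named on the arrays, chosen by name as members of these pathways, with earlier results of these data already known. All 37 had a probe, and the probe with the brightest mean signal over the 4 arrays stands for each gene. The other probes of 19 members served as a check. Each population of mouse cells was measured on 1 single-colour Agilent array, so no spread between cultures can be estimated and no test was possible. Members are therefore described by their differences between single arrays, counted at a size of 2-fold, a log2 difference of 1.

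All 4 populations came from the bone marrow of BALB/c mice and are called purified in the labels. Antibody-treated sDCs were formed on stroma, with a neutralizing antibody against interleukin-10 (IL-10) supplied repeatedly to the medium at 10 µg/mL. The sDCs without antibody were made from lineage-depleted haematopoietic progenitors seeded onto layers of mesenchymal stem cells, which form the stroma of the marrow. Both sDC cultures met lipopolysaccharide (LPS), a bacterial cell wall product, on day 4 and were formed by day 9. Mature dendritic cells (maDCs) were immature ones, as described next, kept for a further 4 to 5 days with 10 ng/mL LPS. Immature dendritic cells (imDCs) came from a marrow culture that held the growth factor GM-CSF at 10 ng/mL and, at 5 ng/mL, the cytokine IL-4, and were taken on day 4 and selected with beads against CD11c, an integrin of dendritic cells. How the sDCs were parted from the stroma, which cytokines they received, the LPS dose they met, the number of animals and the oxygen level of any culture are not given in the sources used here. The comparisons of maDCs and sDCs with imDCs thus combine LPS with the time in culture and, for sDCs, with the stroma and a different starting cell, and these cannot be told apart.

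Glycolysis splits glucose into pyruvate in the cytosol, and lactate dehydrogenase turns pyruvate into lactate where it is not passed to the mitochondria. Hypoxia-inducible factors (HIFs) are transcription factors whose alpha subunits are hydroxylated and destroyed while oxygen is present. In its absence they bind a short DNA core near their targets, among them most glycolytic genes. In dendritic cells and macrophages, LPS is known to raise glucose use and lactate release and to stabilize HIF-1 alpha also where oxygen is plentiful.

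The arrays differed in ways that touch each result below. The antibody-treated sDC, sDC and maDC arrays shared 1 slide, while imDCs were hybridised to a different slide, scanned separately, so for every comparison with imDCs the slide and the group cannot be told apart. Cell type markers also moved with the groups. Of 16 stromal markers, 14 were at least 2-fold higher in sDCs than in imDCs, and all 12 macrophage markers were, while 11 of 12 dendritic cell markers were lower. The summed signal of the dendritic cell markers, in units of each array's 75th percentile, was 45.3 in antibody-treated sDCs, 50.0 in sDCs, 505 in maDCs and 327 in imDCs. Irf4, a transcription factor of dendritic cells, was not well above background on either sDC array. For macrophage markers these sums were 278, 320, 145 and 40.6, with Cd163 and Folr2 not well above background in maDCs or imDCs. Stromal markers summed to 145 in antibody-treated sDCs, 245 in sDCs, 146 in maDCs and 153 in imDCs, and the sums in maDCs and imDCs came mostly from Thy1 and Acta2. Col6a1 and Pdgfra, stromal genes well above background on both sDC arrays, were not so in maDCs or imDCs. Neutrophil markers summed to 257 in antibody-treated sDCs, 146 in sDCs, 90.3 in maDCs and 1177 in imDCs, and cell cycle genes to 19.0, 17.0, 68.6 and 193. Mast cell and basophil markers summed to 0.88 in antibody-treated sDCs, 0.68 in sDCs, 139 in maDCs and 26.7 in imDCs. Of the 9 with a value, all were at least 2-fold higher in maDCs than in imDCs, and 8 were lower in sDCs than in imDCs. The 10 immediate early and heat shock genes that respond to handling summed to 371 in antibody-treated sDCs, 329 in sDCs, 415 in maDCs and 120 in imDCs, with 6 at least 2-fold higher in sDCs and 8 in maDCs than in imDCs. In these bulk samples fewer cells of a type and less RNA per cell cannot be told apart, and the part of these cell types and of handling in the results was not tested.

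Most glycolysis and hypoxia genes had their highest signal on the sDC arrays. Against imDCs, 21 of the 37 members were at least 2-fold higher in sDCs and 2 were lower, where 25.3% and 16.2% of all 15034 genes with a value were. The median member difference was 1.39, against 0.21 over all genes. Against maDCs, on the same slide, 16 members were at least 2-fold higher in sDCs, beside 14.2% of all genes, and 3 were lower, beside 16.8%. The median was 0.83, against 0.03 over all genes. Between maDCs and imDCs, 13 members were at least 2-fold higher in maDCs and 2 lower, with a background of 21.5% and 10.8%, and the median was 0.62 against 0.18. At 1.5-fold, 19 members were higher in maDCs, beside 33.5% of genes, and 4 lower, beside 20.1%. Antibody-treated sDCs differed from sDCs by 2-fold or more in 0 of 36 members in either direction, where 0.855% of all genes were higher and 1.27% lower, and the median was -0.01 against -0.03. The comparisons share arrays, so their values are not independent.

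**Figure D1:**
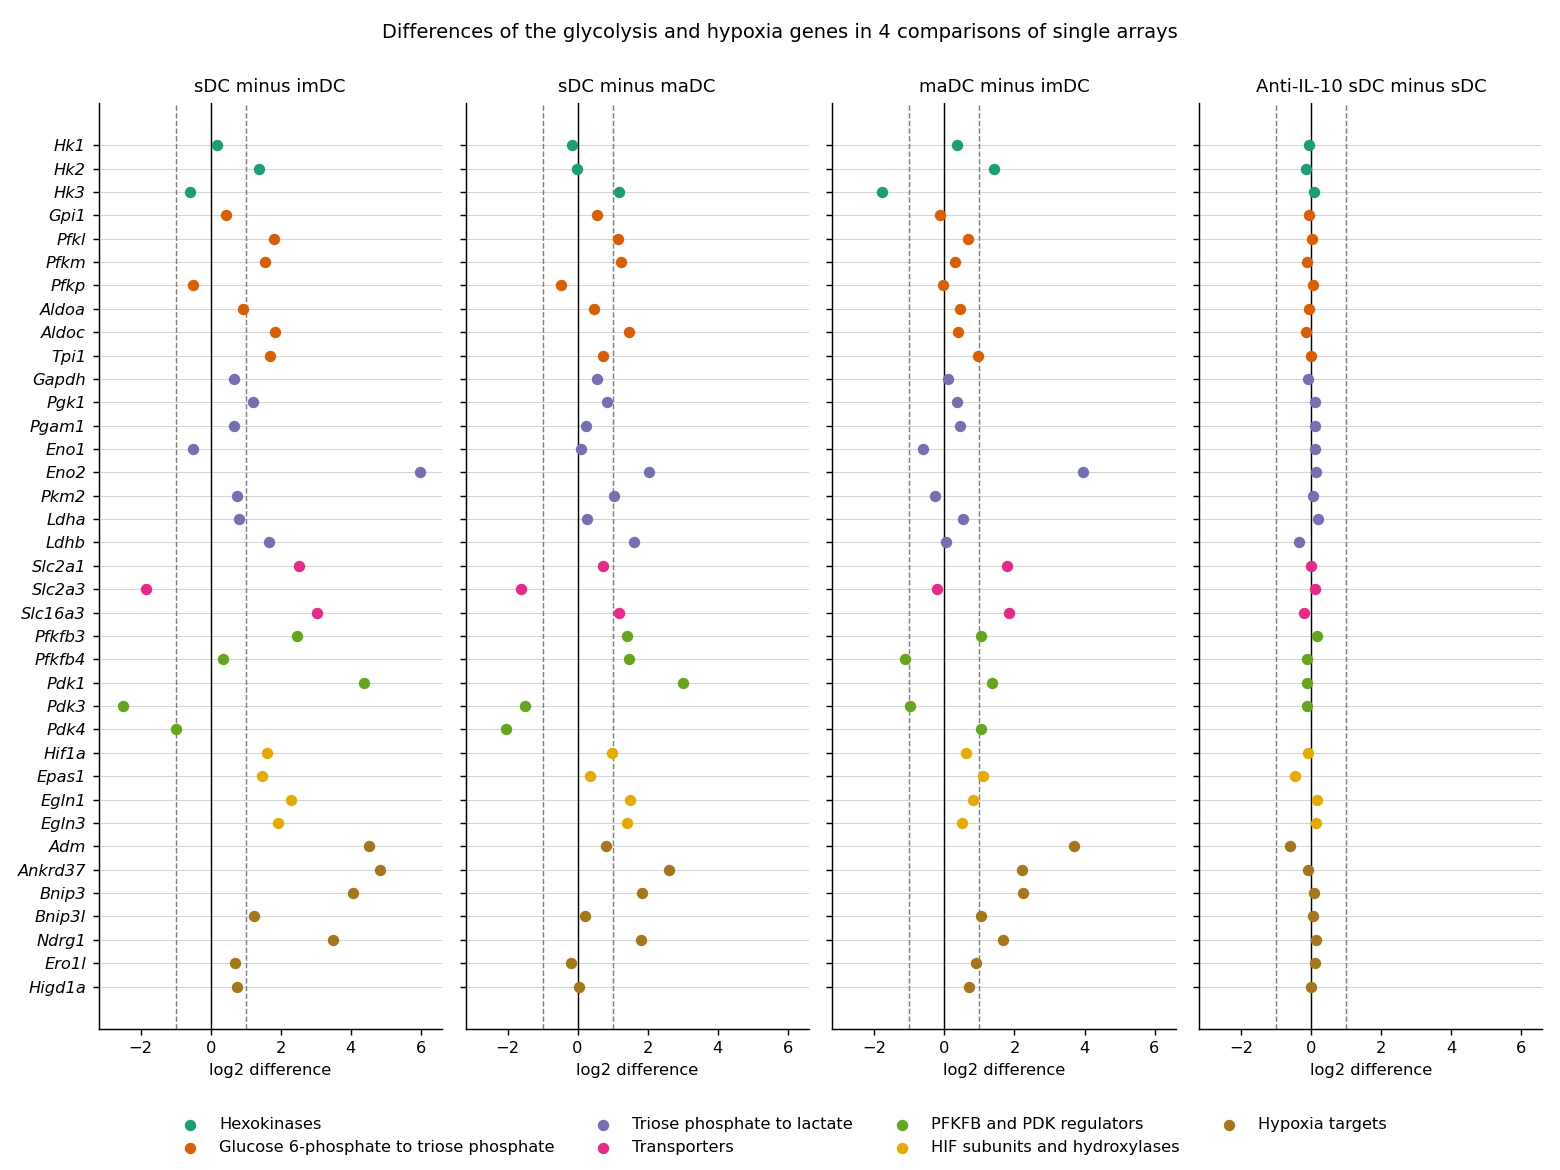
Each point is the log2 difference of 1 gene between 2 single arrays, with genes in rows by pathway step and 1 panel per comparison. Dashed lines mark 2-fold, and the solid line marks no difference. In sDCs minus imDCs 21 points lie at or right of 2-fold, while in antibody-treated minus untreated sDCs all 36 lie within it.

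Levels below are log2 signals relative to each array's 75th percentile, so 0 is the 75th percentile itself, and they are compared only within a gene. Of the 36 members well above background on all 4 arrays, 24 were lowest in imDCs, intermediate in maDCs and highest on both sDC arrays, an order shown by 24.1% of 12946 genes. Both sDC arrays lay above both others for 27 members, against 35.6% of genes. The reverse order, with imDCs highest and both sDC arrays lowest, held on the chosen probes of Pfkp, Slc2a3 and Pdk3, 3 members against 16.5% of genes, and they were also the only members of the 36 with both sDC arrays below both others, beside 28.9% of genes. Both other probes of Pfkp and 1 other probe of Slc2a3 went the opposite way between sDCs and imDCs, as given below, while the second Pdk3 probe did not. These orders were chosen after the values were seen. Scaling matters for the smaller differences: with each array's median in place of its 75th percentile, the all-gene median moved to -0.20 in maDCs minus imDCs and -0.18 in sDCs minus imDCs. Of the called members, 72.7% were then higher in maDCs than in imDCs, against 86.7% here, while of all called genes 43.3% were, against 66.5% here. In the authors' deposited values that share was 56.3%. Of all genes called between sDCs and imDCs, 43.0% were higher in sDCs with the median scaling, against 61.0% here.

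Of the members, 4 encode HIF alpha subunits or the hydroxylases that mark them for destruction. All 4 were at least 2-fold higher in sDCs than in imDCs, beside 25.3% of all genes. This did not hold for every gene of these kinds outside the members. Arnt and Hif3a, further HIF subunits, differed by 1.35 and 0.70 between sDCs and imDCs, and Egln2, a further hydroxylase, by -0.48. Hif1a, the alpha subunit of HIF-1 (probe at mm9 chr12:75047269-75047329), had levels of 3.21 in antibody-treated sDCs, 3.31 in sDCs, 2.32 in maDCs and 1.70 in imDCs. Its difference was 1.62 between sDCs and imDCs, and 0.99, just within 2-fold, between sDCs and maDCs. Epas1, which encodes HIF-2 alpha, was at 1.33 in antibody-treated sDCs, 1.81 in sDCs, 1.45 in maDCs and 0.35 in imDCs. A second measured Epas1 probe gave 1.46 for sDCs minus imDCs, as the chosen probe did.

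The hydroxylase genes among the members, themselves known HIF targets, differed more between sDCs and maDCs than Epas1 did. Egln1, the main oxygen sensor, stood at 2.21 in antibody-treated sDCs, 2.06 in sDCs, 0.56 in maDCs and -0.24 in imDCs. Its sDC level was thus 4.95-fold the imDC level and 2.83-fold the maDC level. Egln3 had 3.94 in antibody-treated sDCs, 3.82 in sDCs, 2.41 in maDCs and 1.90 in imDCs. Both sDC arrays thus lay above both others for Egln1 and for Egln3. Neither gene reached 2-fold between maDCs and imDCs, with 0.81 for Egln1 and 0.51 for Egln3.

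Among the 7 hypoxia targets without a part in glycolysis, 5 were at least 2-fold higher in sDCs than in imDCs. This is 71.4%, beside 25.3% of all genes, and the median was 3.49 against 0.21 over all genes. The same number was higher in maDCs, beside 21.5% of all genes, with a median of 1.67 against 0.18. Ankrd37, an ankyrin repeat protein known as a HIF target (mm9 chr8:47082404-47082463), had levels of 3.87 in antibody-treated sDCs, 3.97 in sDCs, 1.35 in maDCs and -0.86 in imDCs. Its sDC signal was 28.6-fold that of imDCs and 6.15-fold that of maDCs. Adm, which encodes the vasodilator peptide adrenomedullin (chr7:117773088-117773147), followed another course: 0.40 in antibody-treated sDCs, 1.02 in sDCs, 0.20 in maDCs and -3.50 in imDCs. Most of its 23.0-fold difference between sDCs and imDCs was already present in maDCs, at 13.0-fold, and sDCs exceeded maDCs by 1.77-fold.

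Bnip3 and Bnip3l encode related proteins of the outer mitochondrial membrane that tag mitochondria for autophagy. Bnip3 (mm9 chr7:146083077-146083136) was at 5.24 in antibody-treated sDCs, 5.15 in sDCs, 3.32 in maDCs and 1.09 in imDCs, 16.7-fold higher in sDCs than in imDCs. Bnip3l was at 4.36, 4.31, 4.11 and 3.06 on the same arrays, a difference of 1.25 between sDCs and imDCs. Its other probe gave 0.12, and -0.32 for maDCs minus imDCs where the chosen probe gave 1.05, so the Bnip3l difference is uncertain.

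Ndrg1, a stress-response gene induced by hypoxia (mm9 chr15:66761057-66761116), stood at 6.10 in antibody-treated sDCs, 5.96 in sDCs, 4.14 in maDCs and 2.47 in imDCs. It was 11.2-fold higher in sDCs than in imDCs and 3.54-fold higher than in maDCs. The remaining members of this group stayed within 2-fold: Ero1l, an oxidase that helps form disulfide bonds in the endoplasmic reticulum, differed by 0.71 between sDCs and imDCs. Higd1a, a small mitochondrial membrane protein, differed by 0.74, although its dimmer probe gave 1.34.

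**Figure D2:**
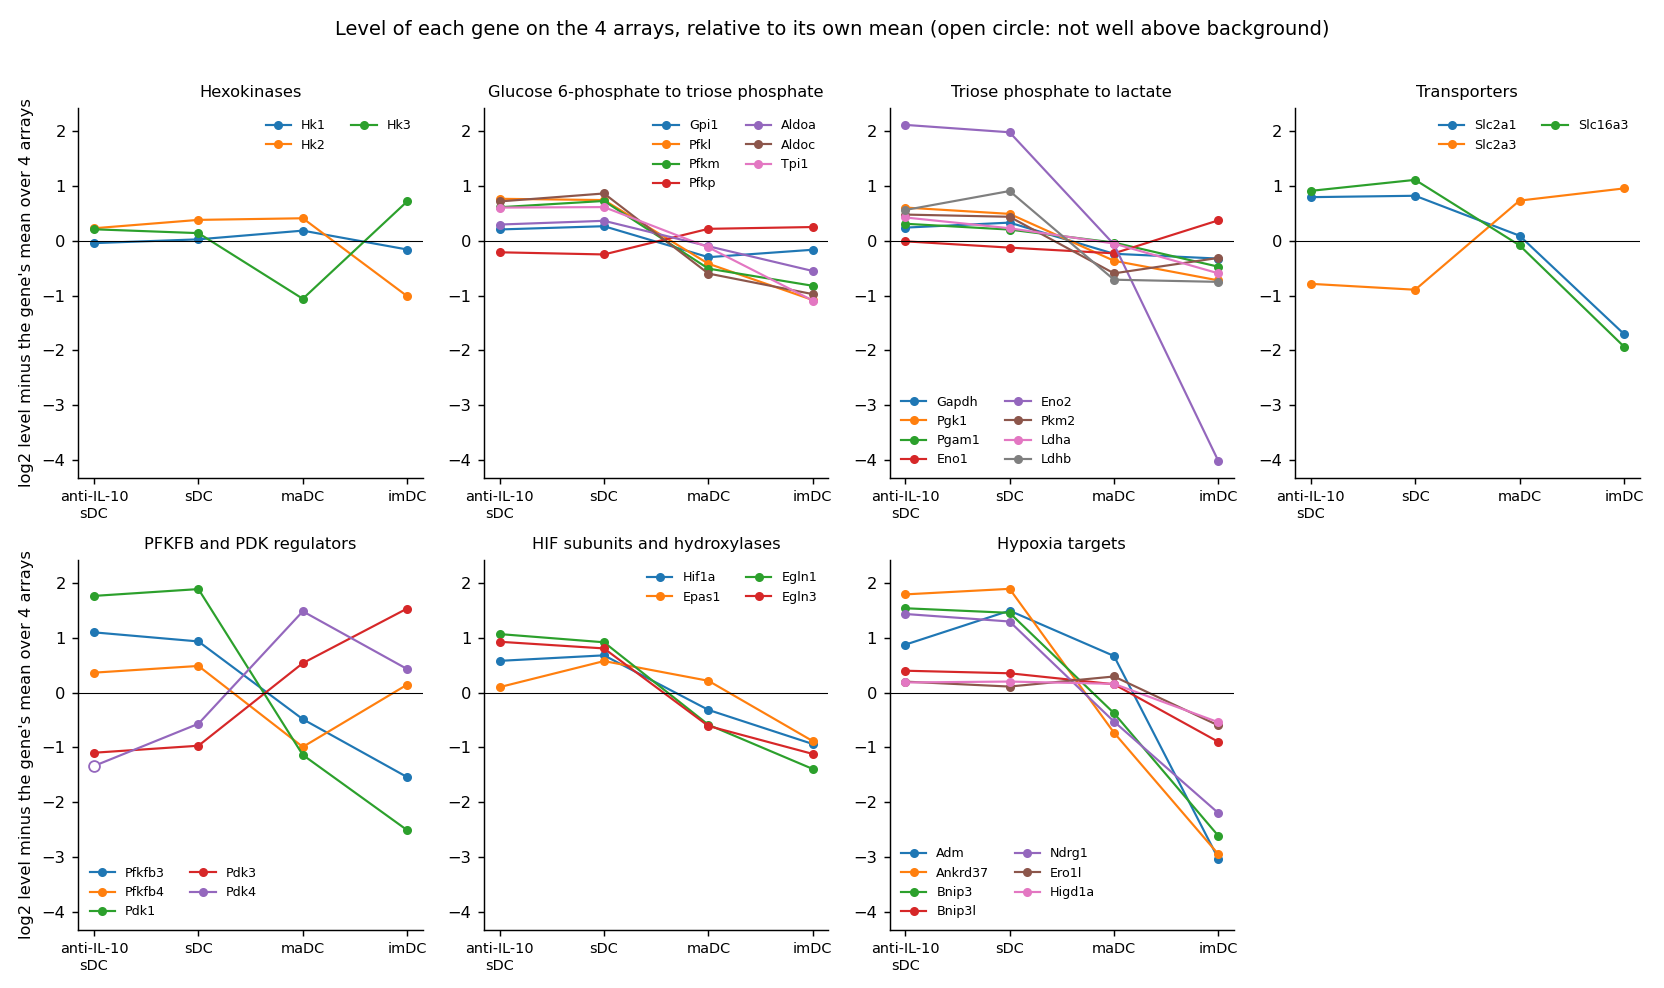
Points are log2 levels of each gene on the antibody-treated sDC, sDC, maDC and imDC arrays, minus that gene's mean over the 4, with 1 panel per pathway step. Lines join the points of a gene, and the open circle marks Pdk4 in antibody-treated sDCs, not well above background. Among the 36 genes well above background throughout, both sDC arrays lie above both others for 27 and below them for Pfkp, Slc2a3 and Pdk3, on the chosen probes.

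The promoters of the members with the largest differences between sDCs and imDCs are printed because HIFs bind a core written ACGTG or GCGTG, and these windows show where such letters lie. Each runs from 250 bases before to 50 bases after the annotated transcription start (RefSeq, build GRCm38.p6), 5′ to 3′ on the gene's strand, and capitals mark ACGTG or GCGTG on either strand. The windows are Eno2 at chr6:124769624-124769923 (minus strand), Ankrd37 at chr8:45999801-46000100 (minus), Adm at chr7:110627407-110627706 (plus), Pdk1 at chr2:71872974-71873273 (plus, the first of its 2 windows) and Bnip3 at chr7:138909457-138909756 (minus).
Eno2: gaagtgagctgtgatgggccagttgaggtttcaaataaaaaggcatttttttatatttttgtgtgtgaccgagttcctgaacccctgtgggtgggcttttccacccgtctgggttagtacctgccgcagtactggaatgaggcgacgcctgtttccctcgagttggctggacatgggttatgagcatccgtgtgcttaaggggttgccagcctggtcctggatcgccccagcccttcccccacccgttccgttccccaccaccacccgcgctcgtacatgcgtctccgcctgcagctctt
Ankrd37: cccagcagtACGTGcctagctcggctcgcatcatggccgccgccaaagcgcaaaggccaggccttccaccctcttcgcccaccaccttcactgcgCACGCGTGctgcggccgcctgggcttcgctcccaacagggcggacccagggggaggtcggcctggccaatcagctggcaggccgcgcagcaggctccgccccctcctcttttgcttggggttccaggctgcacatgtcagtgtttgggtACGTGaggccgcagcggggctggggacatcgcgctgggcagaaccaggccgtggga
Adm: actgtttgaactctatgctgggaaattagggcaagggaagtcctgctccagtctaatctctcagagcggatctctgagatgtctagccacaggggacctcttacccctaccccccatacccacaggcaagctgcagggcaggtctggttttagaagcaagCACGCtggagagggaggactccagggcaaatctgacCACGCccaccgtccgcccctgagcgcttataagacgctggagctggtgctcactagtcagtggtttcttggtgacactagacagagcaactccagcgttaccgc
Pdk1: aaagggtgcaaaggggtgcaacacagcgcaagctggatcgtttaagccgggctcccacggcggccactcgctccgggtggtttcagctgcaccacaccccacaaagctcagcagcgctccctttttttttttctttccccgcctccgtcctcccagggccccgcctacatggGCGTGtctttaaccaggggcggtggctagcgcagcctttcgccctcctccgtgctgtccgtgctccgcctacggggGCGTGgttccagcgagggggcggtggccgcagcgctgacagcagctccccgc
Bnip3: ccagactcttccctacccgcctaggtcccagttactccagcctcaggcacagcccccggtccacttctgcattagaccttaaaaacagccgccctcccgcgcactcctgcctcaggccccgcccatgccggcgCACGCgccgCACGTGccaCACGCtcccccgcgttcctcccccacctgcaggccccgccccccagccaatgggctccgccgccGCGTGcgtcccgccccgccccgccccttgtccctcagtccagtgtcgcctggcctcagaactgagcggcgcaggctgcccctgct

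The Ankrd37 window held the core near its first bases, just before the annotated transcription start, and in a block of overlapping matches between them. The Bnip3 window held 5 matches, most of them close together. There the capitals CACGTG are an E-box, a palindrome that other factors bind and that contains ACGTG on both strands. Adm and Pdk1 had 2 matches each, and Eno2, with the largest difference of all members, had none in its window. Of the 37 members, 33 had a promoter window in the table (Slc2a3, Epas1, Bnip3l and Ndrg1 had none), and 30 of these, 90.9%, held ACGTG or GCGTG in at least 1 window. Over all 27025 genes with a window the share was 46.7%. Member windows also held more CG dinucleotides, a median of 20 each against 7 over all windows, and the core itself contains CG. A match is a run of letters and not a measured binding site, and no binding was measured here. Members without a large difference between sDCs and imDCs, such as Gapdh, held the core as well, and so did Pdk3, which was lower on both sDC arrays.

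**Figure D3:**
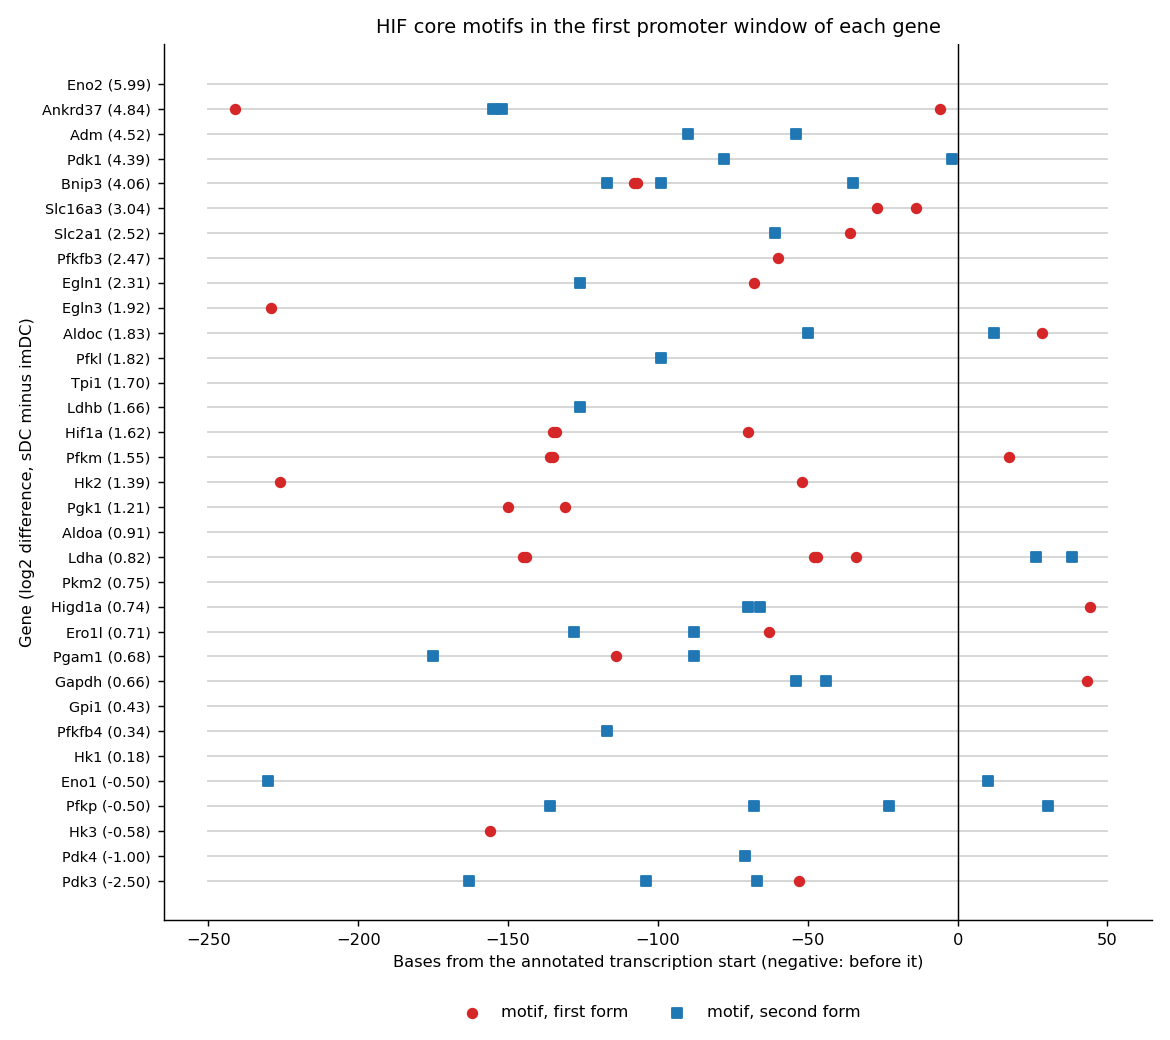
Points mark the first base of each HIF core, in bases from the annotated transcription start, in the first promoter window of the 33 members that had one. Circles are the form ACGTG and squares the form GCGTG, and genes run from the highest to the lowest log2 difference of sDCs minus imDCs, given in brackets. Eno2, at the top, has no point, Pdk3, at the foot, has 4, and Hk1, Aldoa and Pkm2 hold theirs in a further window that is not drawn.

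Glucose enters cells through the SLC2A transporters, and lactate leaves through the SLC16A family. Slc2a1, which encodes GLUT1, the main carrier of activated leukocytes (mm9 chr4:118809864-118809923), had levels of 7.19 in antibody-treated sDCs, 7.21 in sDCs, 6.49 in maDCs and 4.69 in imDCs. It was 5.73-fold higher in sDCs and 3.46-fold higher in maDCs than in imDCs. Slc16a3, which encodes the lactate exporter MCT4 (chr11:120820023-120820082), stood at 7.05 in antibody-treated sDCs, 7.25 in sDCs, 6.05 in maDCs and 4.21 in imDCs, an 8.21-fold difference between sDCs and imDCs. For both carriers all 3 LPS-exposed arrays lay above the imDC array.

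Slc2a3, encoding the high-affinity carrier GLUT3, ran the other way, at -0.20 in antibody-treated sDCs, -0.31 in sDCs, 1.31 in maDCs and 1.54 in imDCs. This is a difference of -1.85 between sDCs and imDCs. Another Slc2a3 probe, much dimmer and placed by the files on chromosome 17 instead of 6, gave 2.38, so the direction for Slc2a3 is uncertain.

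The hexokinases, which trap glucose in the cell by phosphorylating it, differed from each other. Of the 3, 1 was at least 2-fold higher in sDCs than in imDCs, 33.3% beside 25.3% of all genes, which is near the background. Hk2, the inducible hexokinase bound to mitochondria, was at 4.45 in antibody-treated sDCs, 4.60 in sDCs, 4.63 in maDCs and 3.21 in imDCs. The 3 LPS-exposed arrays thus lay close together and all above the imDC array, by 1.39 for sDCs and 1.42 for maDCs. Hk1, the isoform of most tissues, lay between 4.99 and 5.33 on all arrays, and the sign of its small differences from imDCs turned with the scaling. Hk3, a myeloid hexokinase, stood at 2.32 in antibody-treated sDCs, 2.25 in sDCs, 1.06 in maDCs and 2.83 in imDCs, and was 3.42-fold lower in maDCs than in imDCs.

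From glucose 6-phosphate to the triose phosphates, 4 of 7 genes were 2-fold or more higher in sDCs than in imDCs. This is 57.1%, beside 25.3% of all genes, while in maDCs 0 of 7 were, beside 21.5%. Pfkl and Pfkm are the liver and muscle forms of phosphofructokinase, the step at which the pathway is mainly controlled. Pfkl had 3.07 in antibody-treated sDCs, 3.04 in sDCs, 1.88 in maDCs and 1.22 in imDCs, and Pfkm differed by 1.55 between sDCs and imDCs and by 1.23 between sDCs and maDCs. Pfkp, the platelet form, differed by -0.50 between sDCs and imDCs, but its other probes gave 0.16 and 1.79, so no direction can be given for it.

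Further down, Tpi1, which interconverts the triose phosphates, had 7.07 in antibody-treated sDCs, 7.08 in sDCs, 6.34 in maDCs and 5.38 in imDCs. It was 3.26-fold higher in sDCs than in imDCs. Aldolase genes both leaned to the sDC side: Aldoc, the brain form, was 3.57-fold higher in sDCs than in imDCs, and 6.92-fold on its dimmer probe. Aldoa, the muscle form and the most used one, was 1.88-fold higher. Gpi1, which isomerizes glucose 6-phosphate and is spotted repeatedly, with 8 usable spots on the imDC array, lay at 7.46 in antibody-treated sDCs, 7.52 in sDCs, 6.96 in maDCs and 7.10 in imDCs. The SD between its spots was at most 0.061, so its difference of 0.56 between sDCs and maDCs exceeded the error of spotting and scanning, which holds no error of culture, RNA or labelling.

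In the steps from triose phosphate to lactate, 3 of 8 genes were 2-fold or more higher in sDCs than in imDCs, 37.5% beside 25.3% of all genes, and 5 lay within 2-fold. With 8 genes these shares are close. Eno2, the enolase named for neurons (mm9 chr6:124710545-124710604), showed the largest difference of all members. Its levels were 2.91 in antibody-treated sDCs, 2.77 in sDCs, 0.73 in maDCs and -3.22 in imDCs, which makes it 63.6-fold higher in sDCs and 15.4-fold higher in maDCs than in imDCs. A second Eno2 probe gave 62.8-fold and 15.4-fold, but shares 31 of its 60 bases with the first and is not independent. Eno1, the enolase of most tissues, stood at 2.86 in antibody-treated sDCs, 2.75 in sDCs, 2.64 in maDCs and 3.24 in imDCs, so it was within 2-fold in every comparison.

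Pgk1, the first ATP-forming step, is spotted 10 times on each array. It had 7.82 in antibody-treated sDCs, 7.71 in sDCs, 6.85 in maDCs and 6.49 in imDCs, with an SD between spots of at most 0.11, and was 2.32-fold higher in sDCs than in imDCs. With array median scaling, with quantile normalization and in the authors' deposited values this lay below 2-fold. Ldhb, the lactate dehydrogenase subunit typical of heart, was at 2.11 in antibody-treated sDCs, 2.46 in sDCs, 0.85 in maDCs and 0.81 in imDCs, 3.06-fold higher in sDCs than in maDCs. Ldha, the subunit that favours lactate and a known HIF target, differed less, by 0.82 between sDCs and imDCs and by 0.28 between sDCs and maDCs. Its dimmer probe gave 1.35 and 0.95.

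Other late steps differed less. Gapdh, often taken as a constant reference, was at 7.28 in antibody-treated sDCs, 7.37 in sDCs, 6.81 in maDCs and 6.72 in imDCs, a difference of 0.66 between sDCs and imDCs, and Pgam1 differed by 0.68. Pkm2, the symbol in the files for the gene of muscle-type pyruvate kinase, was 0.75 higher in sDCs than in imDCs and 1.03 higher than in maDCs. A second probe gave 0.33 and 0.76, and a probe on another transcript record gave 2.58 and 1.13. Which splice forms the probes detect was not tested. Gapdh, Pgam1, Eno1, Ldha and Tpi1 have near-identical processed copies in the mouse genome, so a probe may also take up signal from these, and their values are uncertain to that extent.

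Kinases that steer the pathway split by isoform. Pfkfb3 and Pfkfb4 make and break the sugar bisphosphate that activates phosphofructokinase. Pfkfb3, the form with the strongest kinase activity, had 4.03 in antibody-treated sDCs, 3.87 in sDCs, 2.45 in maDCs and 1.39 in imDCs, 5.55-fold higher in sDCs than in imDCs, with 4.63-fold and 9.30-fold on its other probes. Pfkfb4 was at 2.84 in antibody-treated sDCs, 2.96 in sDCs, 1.48 in maDCs and 2.62 in imDCs. It was thus 2.20-fold lower in maDCs than in imDCs and 2.78-fold higher in sDCs than in maDCs.

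Pyruvate dehydrogenase kinases block the entry of pyruvate into the mitochondrial cycle by phosphorylating pyruvate dehydrogenase. Pdk1, the isoform known as a HIF target (mm9 chr2:71741820-71741879), had 3.59 in antibody-treated sDCs, 3.72 in sDCs, 0.69 in maDCs and -0.68 in imDCs. Its 8.12-fold difference between sDCs and maDCs was the largest of any member in that comparison, and against imDCs it was 21.0-fold higher in sDCs. The other Pdk1 probe gave 3.81-fold and 5.69-fold.

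Pdk3 ran the other way (chrX:91010227-91010286), at -1.48 in antibody-treated sDCs, -1.35 in sDCs, 0.15 in maDCs and 1.15 in imDCs. It was 5.66-fold lower in sDCs than in imDCs, with 5.29-fold on its second probe. The difference of Pdk1 minus that of Pdk3, sDCs against imDCs, was 6.89, and between 4.91 and 6.89 over all 4 pairings of their probes. These family pairs were set side by side after their values were seen. Pdk4, the isoform induced by fasting, was dim, at -5.97 in sDCs, -3.92 in maDCs and -4.98 in imDCs, and not well above background in antibody-treated sDCs. It was 4.14-fold lower in sDCs than in maDCs, but its background correction matters: with normexp the difference was -0.80.

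**Figure D4:**
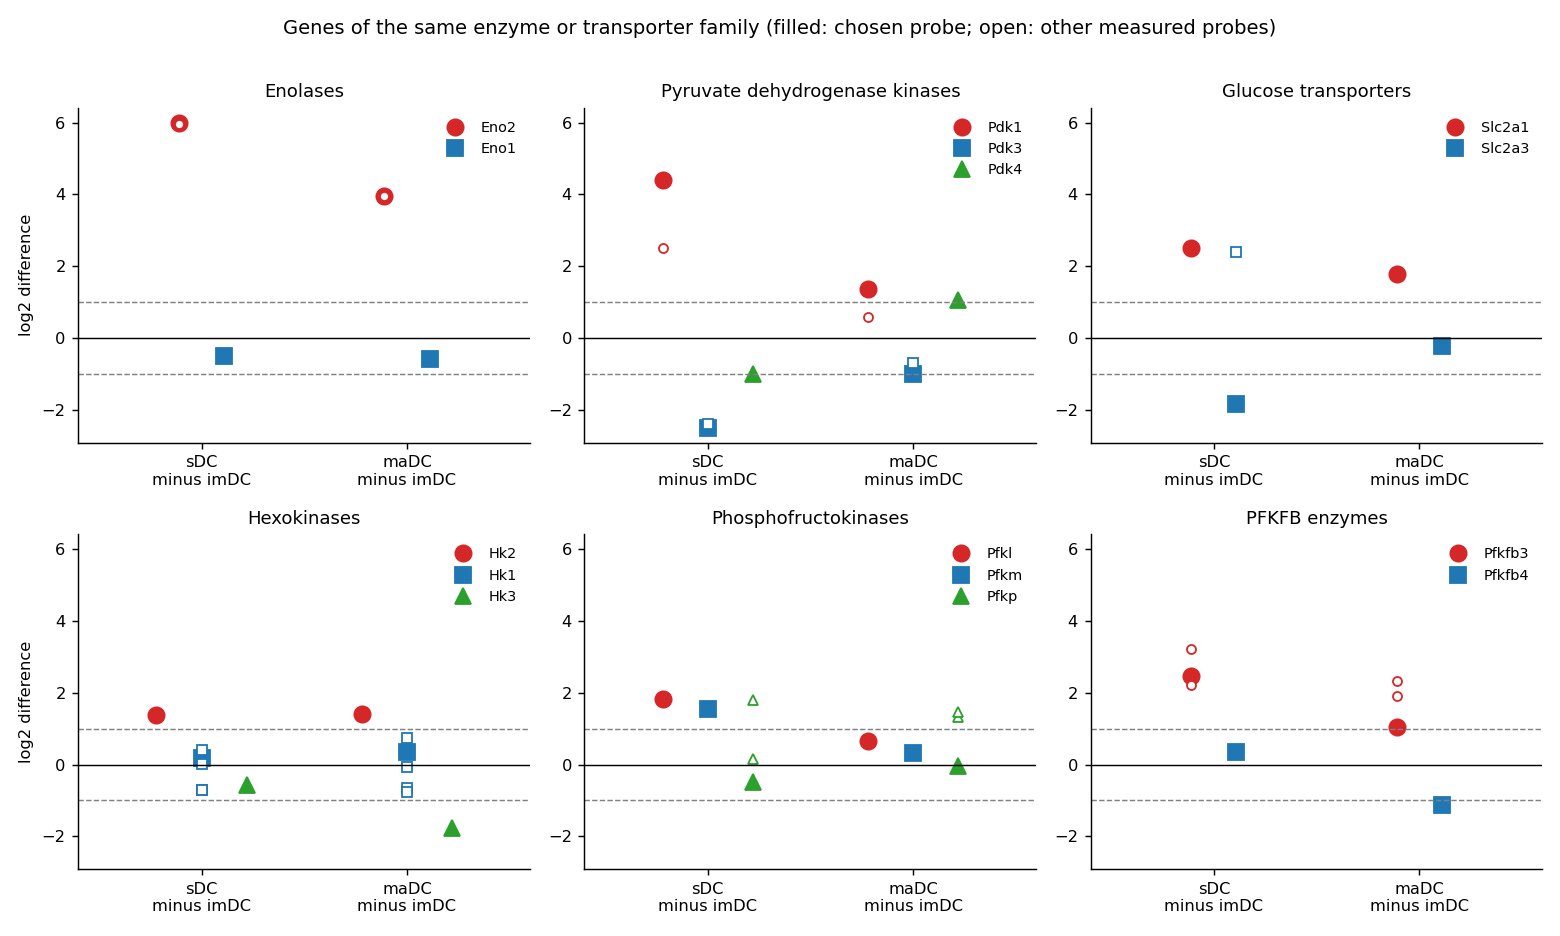
Filled symbols are the log2 differences of the chosen probes of each gene, for sDCs minus imDCs on the left and maDCs minus imDCs on the right of each panel, and open symbols are other measured probes. Dashed lines mark 2-fold. Eno2 at 5.99 stands apart from Eno1 at -0.50 and Pdk1 at 4.39 from Pdk3 at -2.50, while the Pfkp and Slc2a3 probes lie on both sides of 0.

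With IL-10 neutralized, the 36 members measured in both sDC cultures all lay within 2-fold of their level in untreated sDCs. The lowest value was that of Adm, at -0.62, and then Epas1, at -0.47, where another Epas1 probe gave -0.11, and Ldhb, at -0.35. At 1.5-fold, 0 members were higher, beside 2.08% of genes, and 1, Adm, was lower, beside 5.43%. The SD of the differences was 0.18 over the 36 members and 0.28 over all genes. In this comparison 6 of 11 neutrophil markers were at least 2-fold higher in antibody-treated sDCs, beside 0.855% of all genes at 2-fold. The neutrophil markers had a median of 1.05 and the 16 stromal markers had a median of -0.86. Their part in the Adm and Epas1 values was not tested.

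Other hypoxia genes, a list of 32 that shares no member with the 37, showed a like tally in the comparisons with imDCs. In sDCs, 16 of 31 with a value were at least 2-fold higher than in imDCs, 51.6% beside 25.3% of all genes. The 4 lower ones made 12.9%, beside 16.2%, and the median was 1.09. P4ha2, a collagen prolyl hydroxylase subunit, differed most, by 6.83, with levels of 2.99 in antibody-treated sDCs, 3.37 in sDCs, 1.74 in maDCs and -3.46 in imDCs. Loxl2, a collagen-crosslinking oxidase, differed by 6.42. Both act on collagen, and the stromal collagen gene Col1a1 was also higher in sDCs, by 8.16. In maDCs minus imDCs P4ha2 was at 5.20, Loxl2 at 3.84 and Col1a1 at -0.10. There 8 of the 14 stromal markers with a value were at least 2-fold higher. The part of stromal cells in the P4ha2 and Loxl2 values was not tested. The opposite extreme was Tfrc, the transferrin receptor, at -2.85 in antibody-treated sDCs, -2.68 in sDCs, 0.57 in maDCs and 2.79 in imDCs. The 12 cell cycle genes all lay 2-fold or more below their imDC level in sDCs, with a median of -3.68.

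Between maDCs and imDCs, the list had 12 of 32 genes 2-fold or more higher in maDCs, 37.5% beside 21.5% of all genes. Only 2 were lower, 6.25% beside 10.8%. Hilpda, which inhibits the breakdown of lipid droplets, was 15.4-fold higher in maDCs than in imDCs, at levels of 4.82 in maDCs and 0.87 in imDCs. Between sDCs and maDCs, on the shared slide, 5 of 32 were higher, 15.6% beside 14.2% of all genes, and 3 lower, 9.38% beside 16.8%. The share of higher genes was thus near the background, where that of the 37 members was 43.2%. The extremes of the 32 were Selenbp1 at 2.74 and Bhlhe40, a circadian and stress repressor, at -3.55. In antibody-treated sDCs Ddit4, an inhibitor of the growth kinase mTOR, was 2.16-fold higher than in sDCs, and Loxl2 was 2.10-fold lower.

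The remaining glycolysis genes, mostly isoforms of other tissues, showed no common direction. In sDCs against imDCs, 6 of the 18 with a value passed 2-fold upward, 33.3% beside 25.3% of all genes. Downward, 5 did, 27.8% beside 16.2%, and the median was 0.14. Pfkfb2, the heart form of the PFKFB enzymes, was higher by 2.64, and Adpgk, an ADP-dependent glucokinase, differed by -2.59. Adpgk stood at 0.49 in antibody-treated sDCs, 0.60 in sDCs, 0.59 in maDCs and 3.19 in imDCs. Ldhc, the testis lactate dehydrogenase, was at least 13.2-fold lower in sDCs than in imDCs. Against maDCs the lowest value in sDCs was that of Slc2a6, a lysosomal hexose transporter, at -2.66, and then Eno3, the muscle enolase, at -2.20. Hkdc1, a hexokinase-like enzyme, was 7.72-fold higher in maDCs than in imDCs and at least 4.01-fold lower in sDCs than in maDCs.

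Genes of the tricarboxylic acid cycle, which oxidizes the carbon not released as lactate, had medians below 0, at -0.76 in sDCs and -0.33 in maDCs relative to imDCs. Of 17 genes, 5 lay 2-fold or more below imDCs in sDCs, 29.4% beside 16.2% of all genes, and 4 in maDCs, 23.5% beside 10.8%. As many as 0 of 17 lay 2-fold above imDCs in either, beside 25.3% of all genes in sDCs and 21.5% in maDCs. Idh3a, a subunit of the NAD-linked isocitrate dehydrogenase, had 2.01 in antibody-treated sDCs, 2.09 in sDCs, 2.99 in maDCs and 4.33 in imDCs. Idh2, the mitochondrial NADP-linked form, differed from imDCs by -1.84 in sDCs and -1.83 in maDCs, and Fh1 (fumarase) by -1.27 in sDCs and Ogdh, of the 2-oxoglutarate dehydrogenase complex, by -1.21 in maDCs. No gene of the cycle passed 2-fold between sDCs and maDCs, 0 of 17, where 14.2% of all genes were higher and 16.8% lower.

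The pentose phosphate pathway makes NADPH and ribose. Of its 9 genes, 4 lay 2-fold or more below imDCs in sDCs, and 4 in maDCs. This is 44.4% in each case, beside 16.2% of all genes in sDCs and 10.8% in maDCs. Prps1, which makes the activated ribose for nucleotides, had 0.41 in antibody-treated sDCs, 0.56 in sDCs, 3.01 in maDCs and 3.96 in imDCs. Rpia and Tkt, of the branch that rearranges sugars, differed by -1.69 and -1.57 between sDCs and imDCs. Between maDCs and imDCs the lowest values were those of Rpia at -1.41, H6pd at -1.16 and Rpe at -1.09. H6pd, the reticulum form of glucose 6-phosphate dehydrogenase, was 3.11-fold higher in sDCs than in maDCs. Cell cycle genes were lower in sDCs and in maDCs, as given above, and their part in these values was not tested.

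At the entry of pyruvate into mitochondria, 2 of 9 genes lay 2-fold or more below imDCs in sDCs, 22.2% beside 16.2% of all genes, which is near the background. In maDCs 1 lay above and 1 below, 11.1% each beside 21.5% and 10.8%. The 2 lower in sDCs than in imDCs were Pdha1, a subunit of the dehydrogenase that Pdk1 inhibits, at -1.58, and Mpc1, at -1.26. Mpc1 encodes a subunit of the mitochondrial pyruvate carrier. Against maDCs, Mpc1 differed by -1.11 and Pcx (pyruvate carboxylase) by -1.45, while Pdp1, the phosphatase that reverses the kinases, differed by 1.16. Pcx was 1.12 higher in maDCs than in imDCs, and Pdha1 differed by -1.01 there. Of the 4 gluconeogenesis genes with a value, Fbp1 (fructose bisphosphatase) was 8.61-fold lower in sDCs than in maDCs and 6.74-fold lower than in imDCs, and Pck2 was 2.08-fold lower in maDCs than in imDCs.

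**Figure D5:**
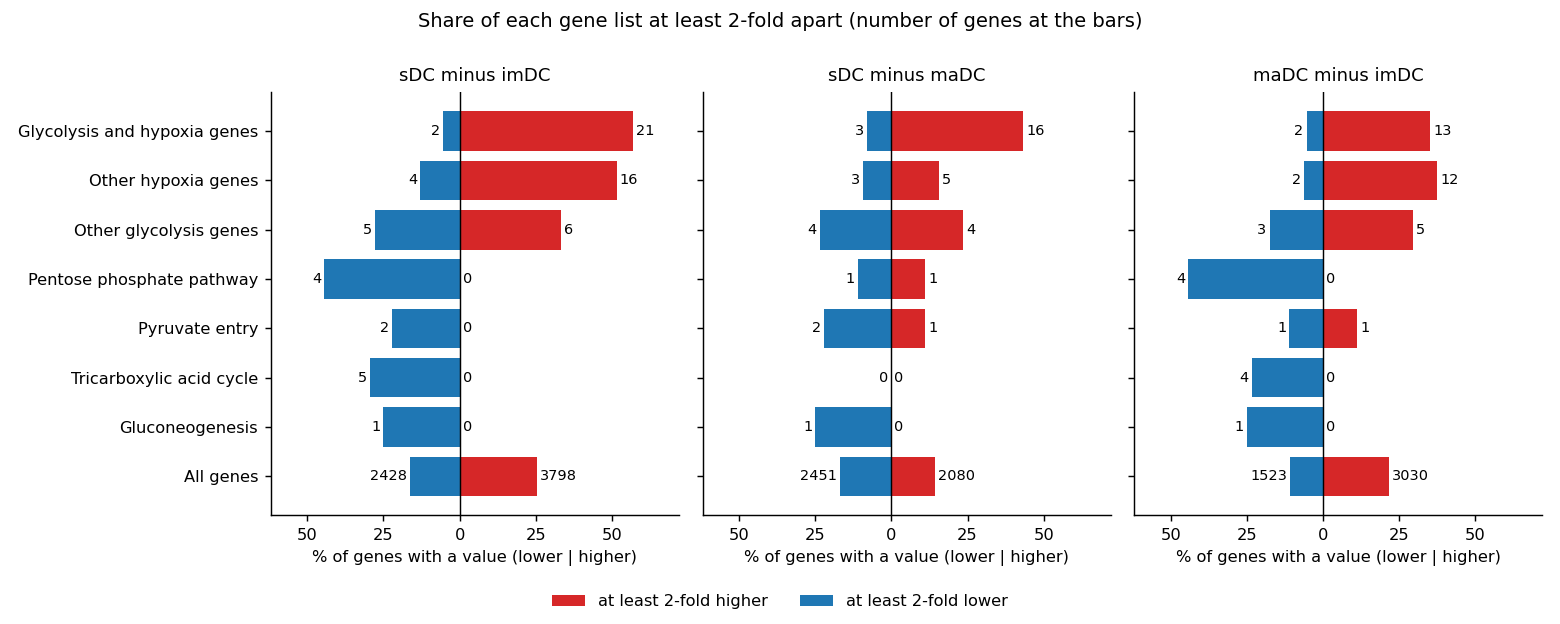
Bars give the percentage of genes with a value that were at least 2-fold higher (right of 0) or lower (left of 0) in each comparison, with the number of genes at the bar. The members and the other hypoxia genes reach furthest right in sDCs minus imDCs, with 21 and 16 genes, and the tricarboxylic acid cycle and pentose phosphate bars lie left of 0 in sDCs minus imDCs and maDCs minus imDCs. The all-gene bars are the background, and how far they lean right in the comparisons with imDCs turns with the scaling.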

How the data were processed

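One array was hybridised per population. For every array the authors deposited a scanner table of background-subtracted intensity values, made with Agilent Feature Extraction 10.5.1.1 per the file headers, while the submitters' processing notes name version 9.1. They also deposited a value table on the log2 scale, used as an alternative: its columns correlated with log2 intensity across probes at 0.997 to 1.00 and shared a median of 6.30. Genome positions are in build mm9, per the file headers.

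From the scanner tables, log2 intensity minus each array's 75th percentile was taken over 43379 non-control spots. Spots marked as outliers (76 to 148 per array) were left out, and spots of a probe were averaged. No spot was saturated (0 on each array). A probe needed the scanner software's mark on 50% or more of its spots to be called well above background. A probe dim on 1 array gave a bound ("at least"), and on both no value. The background genes were named through RefSeq (GRCm38.p6). Members and lists were chosen with earlier results of these data known. Named in the text are all members, markers, and up to 3 genes of each other pathway list per comparison with the largest difference past 2-fold. Arnt, Hif3a and Egln2 are given beside the members of their kind. With 1 array per group, no test, p-value or standard error was possible, and the number of arrays limits the precision. Between spots of probes spotted 10 times, the median SD was 0.047 to 0.059 per array, over the 162 to 172 probes with at least 8 usable spots. The steps were tested on simulated data (Python 3.11.15, pandas 2.3.3, limma 3.58.1 in R 4.3.3). The 9 alternatives changed scaling, background correction, source, dim-probe filter, probe choice or fold threshold.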

Additional observations from a re-analysis of the deposited data

How the results depend on the processing

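The members' differences were recomputed under 4 other scalings, background corrections or sources, 2 other filters on dim probes and 2 other choices of probe, giving 1173 values. Of these, 1144 moved by less than 1.5-fold, 26 by more without a called value changing sign, and 3 turned: Bnip3l in maDCs minus imDCs, at -0.32 on its dimmest measured probe, and Slc2a3 in sDCs minus imDCs, at 0.27 as the mean of its probes and 2.38 on the dimmest. All 3 came from choosing other probes. With array median scaling 8 members in place of 13 were at least 2-fold higher in maDCs than in imDCs. With the mean of the probes, or the dimmest, 1 member in place of 2 was at least 2-fold lower in sDCs than in imDCs. At 1.5-fold, 19 members were higher in maDCs than in imDCs (background 33.5%) and 4 lower (20.1%), and 1, Adm, was lower in antibody-treated sDCs than in sDCs (background 5.43%). Over the scalings and sources, Hk1, Pfkm, Aldoc, Gapdh, Pgk1 and Ldhb changed sign in maDCs minus imDCs, Hk1, Pfkfb4 and Pdk4 in sDCs minus imDCs, Hk2 in sDCs minus maDCs, and Tpi1, Ero1l and Higd1a in antibody-treated sDCs minus sDCs. The side of the 2-fold line changed under at least 1 of them for Pfkfb3, Pdk1, Pdk3, Pdk4, Epas1 and Bnip3l in maDCs minus imDCs, for Pgk1, Pdk4 and Bnip3l in sDCs minus imDCs, and for Pkm2, Pdk4 and Hif1a in sDCs minus maDCs. The member median stayed between 1.004 and 1.39 in sDCs minus imDCs, between 0.78 and 0.89 in sDCs minus maDCs, and between 0.24 and 0.62 in maDCs minus imDCs. No paired analysis was possible because each group holds 1 array, and no array could be left out for the same reason. Dim genes such as Pdk4 are limited by their signal over background.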

Other observations

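Vegfa, which encodes the vessel growth factor VEGF-A and is a textbook HIF target, was not among the 37 genes and was picked here after its values were seen. Its levels were 4.18 in antibody-treated sDCs, 4.08 in sDCs, 3.45 in maDCs and 0.67 in imDCs. Like Adm, it differed more between maDCs and imDCs, by 2.78, than between sDCs and maDCs, by 0.62. Pdk1 showed the other pattern, at 1.37 between maDCs and imDCs and 3.02 between sDCs and maDCs.

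Different probes of 1 gene did not always give the same difference. The 5 measured Hk1 probes ranged from -0.78 to 0.75 in maDCs minus imDCs, and the chosen probe gave 0.34. A second Gpi1 probe gave 1.03 in sDCs minus imDCs, where the chosen probe gave 0.43. A second measured probe existed for 10 of the members past 2-fold between sDCs and imDCs, and in 9 its sign, or that of all further probes, was the same, the exception being Slc2a3. Between sDCs and maDCs this held for 7 of 7 such members, and between maDCs and imDCs for 4 of 5, the exception being Bnip3l. Eno2 is among the agreeing members in each of these comparisons, and Pgk1 between sDCs and imDCs. Their second probes share 31 and 38 of 60 bases with the first, so they are no independent check.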
